A study of Mus musculus with 8 samples.

Results

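RNA of sorted cortex cells from wild-type mice aged 18 months was compared with that of wild-type mice aged 6 months, gene by gene. The comparison was formed by sample title and took 4 of the 8 libraries of the series, 2 for each age. Of 55573 gene IDs counted, 18205 had enough reads to be tested. Both age groups had the genotype PV-Cre/tdTomato/Dnmt1 wild-type (WT) on a C57BL/6 background. PV-Cre is a recombinase driven from the parvalbumin gene, tdTomato is the red fluorescent reporter that it switches on, and Dnmt1 encodes the enzyme that copies DNA methylation onto new strands. The other 4 libraries were from PV-Cre/tdTomato/Dnmt1 loxP2 mice (KO) of the same ages, in which Cre deletes part of Dnmt1, and they served here to share the estimate of the spread and to test whether the age difference depended on genotype. Every mouse thus carried Cre and the reporter. Cortical tissue was dissociated with enzymes and trituration, cells were sorted by fluorescence, and total RNA was taken from the cells of a single hemisphere of each mouse. The design text gives cells pooled from 6 WT mice and 6 KO mice and 2 technical replicates a group. The sources used here do not give whether those mice are counted per age. As far as the labels say each group was 1 pool of cells, so age and whatever else differed between pools cannot be told apart. Nothing says that the 2 libraries of a group came from separate animals, so the p-values measure only how these libraries vary, perhaps for technical reasons, and not how mice vary.

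Parvalbumin interneurons are fast-spiking inhibitory cells that make GABA with the enzymes encoded by Gad1 and Gad2. Oligodendrocytes wrap axons in myelin, a stack of membrane rich in cholesterol and galactolipids, and new ones arise in the adult cortex from dividing precursor cells. Astrocytes clear glutamate and potassium from around synapses, and in the ageing mouse brain glial genes of the complement system, a branch of innate immunity, are known to rise.

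Total counts were 6008175 and 6024905 in the WT libraries at 6 months and 8495242 and 13551218 at 18 months. Pearson's r over log2 CPM (counts-per-million) of tested genes was 0.976 between the WT libraries of 6 months and 0.989 between those of 18 months. The group of 6 months stood apart from the rest of the series: its libraries correlated with those of the other 3 groups at 0.9 to 0.951, while libraries of different groups among those 3 correlated at 0.958 to 0.977. Gm26917, an RNA gene known to collect ribosomal RNA reads, held 9.97% and 9.29% of the counts at 6 months and 2.7% and 3.06% at 18 months. Mitochondrial ribosomal RNA genes held 1.04% and 0.672% at 6 months and 4.3% and 2.68% at 18 months. A fit without Gm26917 and the mitochondrial genes called 5092 genes higher and 5642 lower at 18 months, close to the counts with them given below.

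The labels give the cells as mature parvalbumin-positive cortical interneurons, and the reads of Pvalb and the levels of glial markers went against that label. Pvalb, which encodes parvalbumin, had 0 and 1 reads at 6 months and 2 and 2 reads at 18 months, too few to be tested. Sst, the peptide of another interneuron class, which does not bear on that label, had 1 and 3 reads and then 0 and 2. Some interneuron genes were present: Gad1 had 758 and 815 reads at 6 months and 91 and 180 at 18 months. Kcnc1 had 399 and 356 reads and then 90 and 120. The 24 marker genes of mature oligodendrocytes and myelin together had 17081 and 17059 CPM in the younger and 51261 and 51050 CPM in the older libraries. Those of astrocytes, 22 genes, together had 16270 and 16201 CPM and then 5654 and 5700 CPM. The material is therefore called sorted cortex cells here. Because each library is RNA of many cells, fewer cells of a type and less RNA per cell cannot be told apart.

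Age was associated with a broad change. By the quasi-likelihood test of edgeR, with p-values adjusted after Benjamini and Hochberg over all tested genes, 5133 genes (28.2%) were higher and 5615 genes (30.8%) were lower at 18 months, 59.0% in all. At least 2-fold differences were called higher for 1753 genes (9.63%) and lower for 3346 genes (18.4%). These shares over all tested genes are the background for the counts of list members called below. The median log2 fold change of all tested genes was -0.04, the quartiles were -0.76 and 0.50, and the outer percentiles, 5 and 95, were at -1.96 and 1.43. So large differences were more often losses than gains. For 37.4% of all tested genes both libraries of 18 months were above both of 6 months, and for 40.0% both were below. These shares are the background for each gene below whose ages did not overlap. Genes named for a small p, a large fold or a large change in CPM were chosen from these same libraries. Their lack of overlap is therefore no further support. With either library of 6 months left out, 4853 and 4663 genes were called higher and 5207 and 5088 lower. When libraries were scaled to total counts alone, the median of all genes moved to -0.14, and 40.9% of the calls were higher in place of 47.8%.

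**Figure D1:**
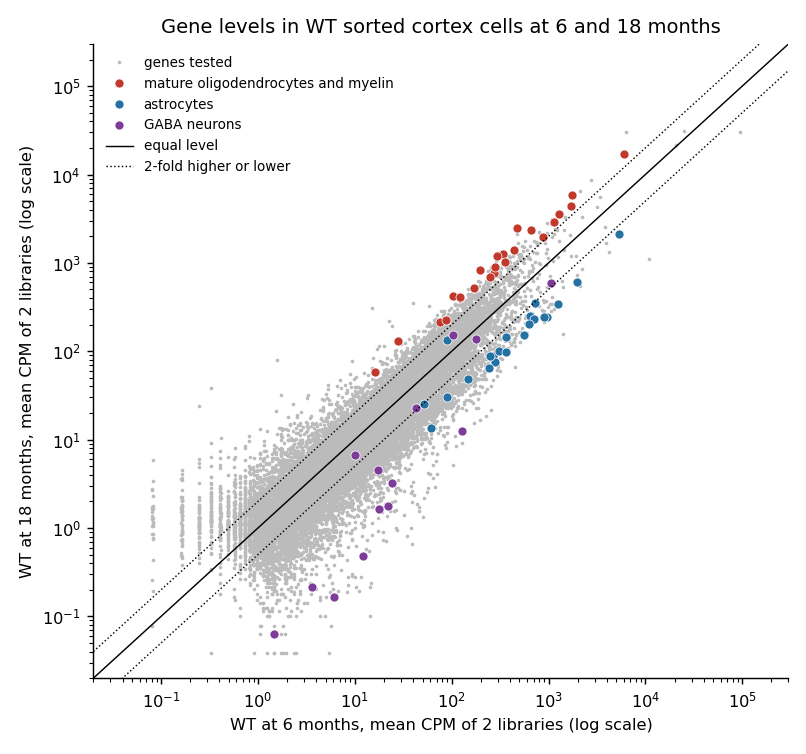
Mean CPM of each tested gene in WT at 6 months (x axis) and at 18 months (y axis), both axes on a log scale, for 18168 of 18205 genes (37 had a group mean of 0). Grey points are all genes, coloured points are the oligodendrocyte, astrocyte and GABA neuron lists, and the lines mark equal levels and 2-fold differences. The 24 oligodendrocyte markers lie above the upper line, while 21 of 22 astrocyte markers lie below the lower line.

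Genes of mature oligodendrocytes and myelin rose together. All 24 markers of that list were called higher, each by at least 2-fold, with a median log2 fold change of 1.67 beside -0.04 for all genes. The range ran from 1.18 for Car2, a carbonic anhydrase, to 2.39 for Apod. Their summed level was 3-fold higher at 18 months.

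Mbp, the protein that joins the inner faces of the myelin membrane, had 1774 and 1691 CPM at 6 months and 6005 and 5867 CPM at 18 months. Both libraries of 18 months lay far above both of 6 months, a 3.43-fold rise. The log2 fold change of Mbp was 1.78 (SE 0.0497, adjusted p = 1.38e-18). Mobp, another basic protein of the myelin sheath, had 684 and 638 CPM at the younger age and 2363 and 2407 CPM at the older. In Mbp and Mobp the replicates differed by far less than the ages did. Mog, a surface protein of the outermost myelin layer, had 271 and 270 CPM and then 743 and 786 CPM (log2 fold change 1.50). Mal, a protein of myelin membrane traffic, had 1247 and 1319 CPM and then 3477 and 3708 CPM. Cnp, an enzyme of the non-compact channels of myelin, had 1693 and 1696 CPM and then 4225 and 4575 CPM. None of these groups overlapped. Ermn, a cytoskeletal protein of late oligodendrocytes, rose 3.75-fold, and Anln, an actin-binding protein, rose 4.19-fold. Opalin, a glycoprotein of the myelin sheath, rose 3.27-fold, from 123 and 123 CPM to 397 and 410 CPM. Trf, the iron carrier transferrin that oligodendrocytes make, had 63.5% of its exon length shared with another gene and is uncertain.

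Apod, which encodes the lipid carrier apolipoprotein D, had the largest fold of the myelin list. It had 485 and 462 CPM at 6 months and 2441 and 2510 CPM at 18 months, a 5.23-fold rise (log2 fold change 2.39, SE 0.0563, adjusted p = 1.32e-19). Scd2, a desaturase that makes unsaturated fatty acids, had 2923 and 2595 CPM and then 8766 and 8652 CPM, and was among the genes with the largest gain in CPM. Enpp2, which makes the signalling lipid lysophosphatidic acid, had 1064 and 1093 CPM and then 3098 and 3175 CPM. In each of these genes the libraries of 18 months stood well clear of those of 6 months.

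**Figure D2:**
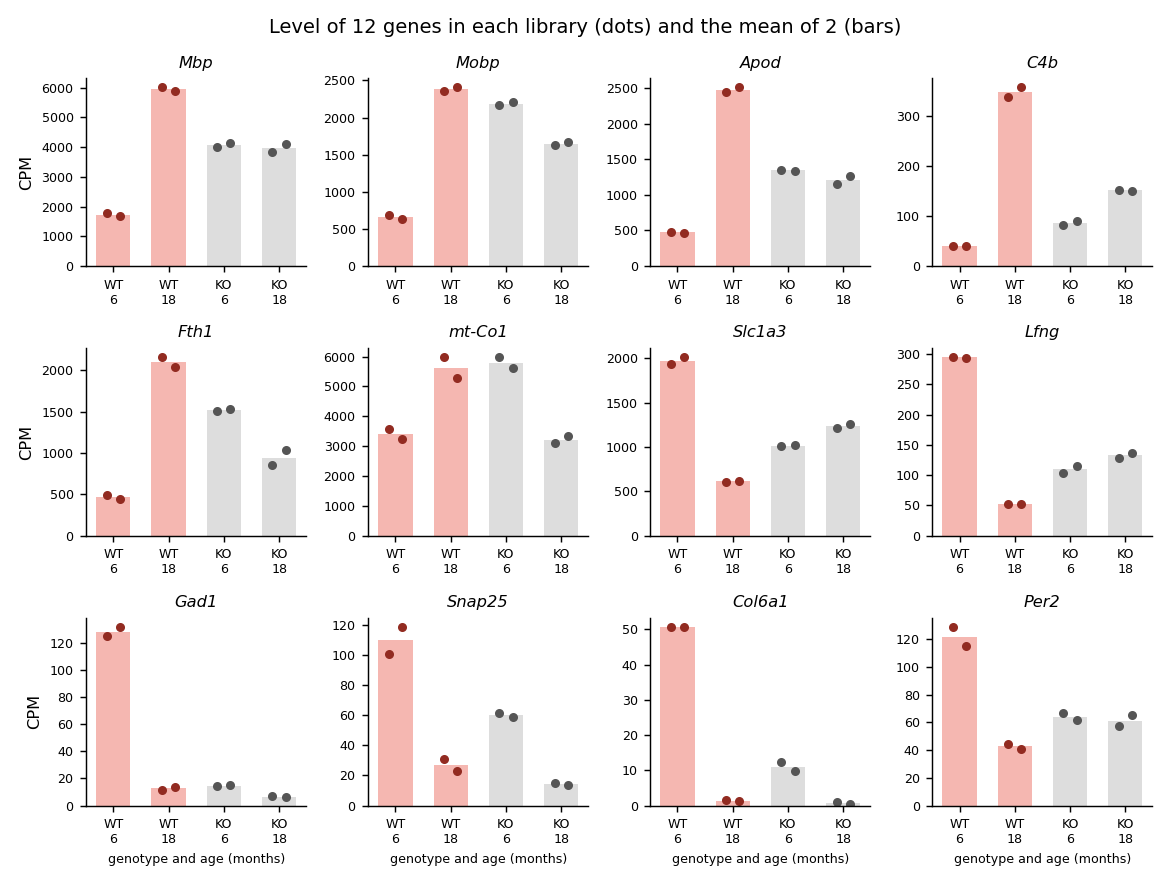
CPM of 12 genes in every library, by group (WT at 6 and 18 months, KO at 6 and 18 months). Bars are means of 2 libraries and start at 0, dots are libraries, and each panel has its own scale. Mbp, Mobp, Apod, C4b and Fth1 were higher and Slc1a3, Lfng, Gad1, Snap25, Col6a1 and Per2 lower in WT at 18 than at 6 months.

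Among genes linked to ageing and to reactive glia the picture was mixed. Of 30 tested members, 10 were higher and 11 lower, with a median log2 fold change of 0.07, which became -0.03 with total-count scaling. Over all tested genes 28.2% were higher and 30.8% lower, so the counts of this list were not far from the background. C4b (chromosome 17, 34728380 to 34743882 in GRCm38), a complement component, had 39.2 and 40.1 CPM at 6 months and 338 and 358 CPM at 18 months. The groups were far apart, 8.79-fold (log2 fold change 3.14, SE 0.0753, adjusted p = 1.47e-19), and C4a is a near-identical copy with which reads may be shared. Il33, an alarm cytokine kept in glial nuclei, had 262 and 241 CPM and then 915 and 879 CPM. Neat1, the RNA scaffold of nuclear paraspeckles, had 588 and 549 CPM and then 1834 and 1708 CPM. Both rose more than 2-fold in every pairing of the libraries. In the opposite direction, Clu, the chaperone clusterin, fell from 938 and 878 CPM to 240 and 245 CPM. The list's lower members also held Gfap, Vim, Apoe, Osmr and Cebpd, and C3 and the 3 genes of complement C1q did not pass the test. Of these C1qc, with a log2 fold change of 0.49, passed it under 7 alternatives, and without replicate 1 of 6 months its value was 0.88.

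Iron genes did not move as a set: 5 of 17 tested members were higher and 8 lower, with a median of -0.25. Fth1, the heavy chain of the iron store ferritin, had 495 and 441 CPM at 6 months and 2158 and 2035 CPM at 18 months. That was a 4.48-fold rise (log2 fold change 2.16, SE 0.0717, adjusted p = 1.61e-17), and its processed copies elsewhere in the genome make the value less certain. Tfrc, the transferrin receptor, rose from 58.6 and 58.5 CPM to 82.3 and 80.4 CPM. Steap3, an iron reductase of endosomes, fell from 20.6 and 22.3 CPM to 6.14 and 5 CPM, and Slc39a14, a metal importer, fell 2.04-fold.

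Genes of oligodendrocyte precursors went the other way from those of mature cells. Of 15 tested markers 13 were lower and 2 higher, with a median log2 fold change of -1.15, and their summed level was 5749 and 5779 CPM at 6 months against 3195 and 3203 CPM at 18 months. Pdgfra, the growth factor receptor that marks precursors, had 735 and 731 CPM and then 320 and 337 CPM (log2 fold change -1.16, SE 0.0547, adjusted p = 6.08e-15). Gpr17, a receptor of precursors committed to differentiate, had 534 and 528 CPM and then 186 and 183 CPM. Cspg4, the NG2 proteoglycan, had 600 and 618 CPM and then 241 and 258 CPM. In all of them the libraries of 18 months were below those of 6 months without overlap. The 2 members that rose were Olig1, a transcription factor of the whole lineage, with 459 and 450 CPM and then 574 and 589 CPM, and Bcas1, a gene of cells that are starting to make myelin, with 120 and 110 CPM and then 227 and 215 CPM. Pdgfra and Cspg4 are also made by fibroblasts and pericytes, whose other markers fell as well.

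Astrocyte genes fell with few exceptions. Of 22 tested markers 21 were lower, each by at least 2-fold, and the median log2 fold change was -1.61. The summed level was 2.86-fold lower at 18 months.

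Slc1a3 (chromosome 15, 8634124 to 8710764), which encodes the glutamate transporter GLAST, had 1938 and 2015 CPM at 6 months and 608 and 618 CPM at 18 months. The difference of 3.22-fold was many times the spread of the replicates (log2 fold change -1.69, SE 0.0507, adjusted p = 3.83e-18). Slc1a2, the other main glutamate transporter of astrocytes, had 5390 and 5335 CPM and then 2137 and 2125 CPM. Aqp4, the water channel of astrocyte end-feet, had 265 and 276 CPM and then 89 and 89.6 CPM. Libraries within an age were nearly equal for both genes. Fgfr3, a growth factor receptor of astrocytes, had 983 and 960 CPM and then 235 and 256 CPM. Aldoc, a glycolytic enzyme of astrocytes, had 1251 and 1243 CPM and then 332 and 350 CPM. Fgfr3 and Aldoc each fell by more than 3-fold. Gfap, the intermediate filament that is used as a sign of reactive astrocytes, was the member with the largest drop, from 61.1 and 60.6 CPM to 12.5 and 14.2 CPM. S100b, a calcium-binding protein of astrocytes that oligodendrocytes also make, was the only member that rose, from 93.3 and 85.3 CPM to 130 and 135 CPM.

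**Figure D3:**
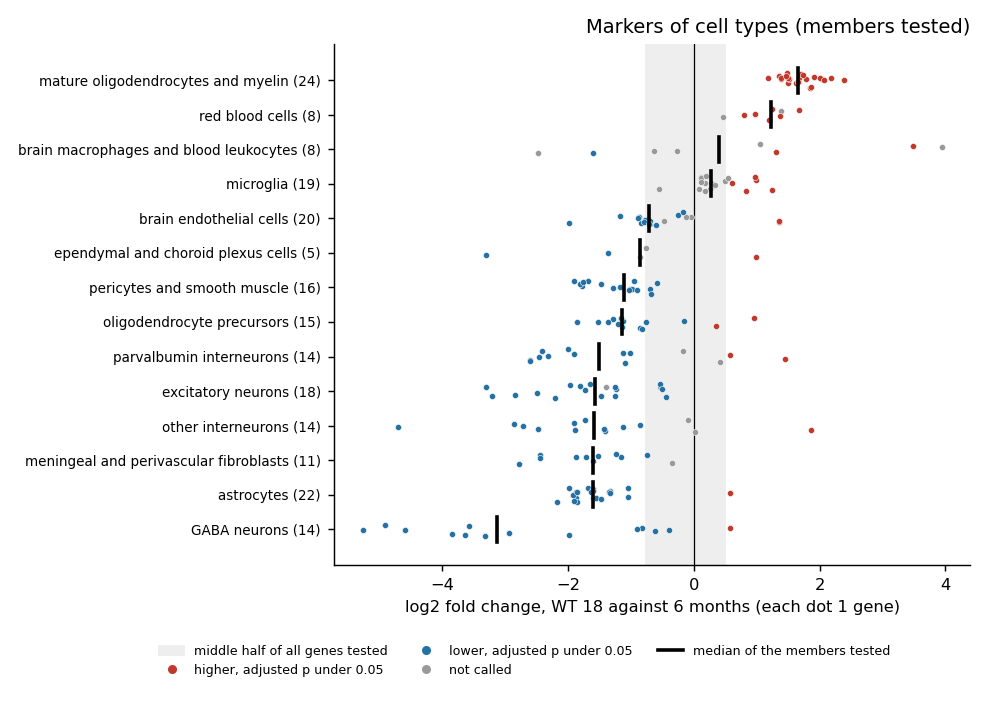
Log2 fold change at 18 against 6 months in WT (x axis) of each tested member of the 14 cell type marker lists (rows). Dots are genes (red called higher, blue called lower, grey not called), the black bar is the list's median and the grey band spans the quartiles of all tested genes, -0.76 to 0.50. All oligodendrocyte markers lie to the right of the band, and most astrocyte, neuronal, mural and fibroblast markers lie to its left.

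Neuronal genes fell, most of them from low levels. Among GABA neuron markers, 13 of 14 tested members were lower and the median log2 fold change was -3.13. Gad1 (chromosome 2, 70553072 to 70602014), the main GABA-synthesising enzyme, had 125 and 132 CPM at 6 months and 11.4 and 13.9 CPM at 18 months. That was a 10-fold drop (log2 fold change -3.32, SE 0.109, adjusted p = 1.39e-17). In KO, Gad1 had means of 14.7 CPM at 6 months and 6.45 CPM at 18 months, both far below WT at 6 months. Gad2, its synaptic partner, had 22.7 and 25.5 CPM and then 3.89 and 2.62 CPM. Slc32a1, the vesicular GABA transporter, had 11.5 and 12.5 CPM and then 0.878 and 0.077 CPM, and 24.9% of its exon length overlaps another gene. Dlx1, a homeobox factor of the interneuron lineage, had 22.9 and 21.4 CPM and then 1.88 and 1.69 CPM. For all of them the level at 18 months was a small fraction of that at 6 months in each library. Erbb4, the neuregulin receptor found in interneurons and also in other cells, rose from 102 and 103 CPM to 155 and 150 CPM and was the only member that did.

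Of the list for parvalbumin interneurons, 14 of 18 members could be tested, 10 were lower and 2 higher, and the median was -1.52. The summed level of all 18 did not fall, with 579.4 and 543.7 CPM and then 629.4 and 601 CPM. Kcnc1, the Kv3.1 potassium channel of fast-spiking cells, had 65.7 and 57.8 CPM and then 11.3 and 9.24 CPM. Kcnc2, its partner subunit, had 11.9 and 6.82 CPM and then 1.76 and 1.62 CPM. Both fell more than 5-fold, with no overlap between ages. Kcna1, a potassium channel of myelinated axons, went the other way, from 125 and 124 CPM to 350 and 332 CPM. Of the 14 tested markers of other interneurons 11 were lower. Nos1, the neuronal nitric oxide synthase, had 27 and 26 CPM and then 1 and 1 CPM, a 26.1-fold drop. Id2, a regulator of differentiation that is not confined to neurons, fell 3.71-fold. Prox1, a homeobox factor, rose 3.66-fold, from 76.9 and 65.1 CPM to 275 and 246 CPM.

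Markers of excitatory neurons fell as those of inhibitory ones did: 16 of 18 tested were lower, none was higher, and the median was -1.56. Slc17a7, the vesicular glutamate transporter of cortical projection cells, had 19.9 and 15.4 CPM and then 4.76 and 5.7 CPM. Camk2a, a kinase of the excitatory synapse, had 136 and 136 CPM and then 38.1 and 32.4 CPM. Bcl11b, a factor of deep-layer projection neurons, had 28.8 and 26.6 CPM and then 3.01 and 2.62 CPM. The libraries of each age did not overlap in any of these genes. Of 24 general neuronal genes 18 were lower and 2, Tubb3 and Elavl3, higher, with a median of -1.74. Rbfox3, the nuclear antigen NeuN, had 42.6 and 39 CPM and then 2.13 and 2.54 CPM (17.1-fold lower, adjusted p = 2.24e-15). Meg3, a long RNA of neurons, had 57 and 62.7 CPM and then 4.51 and 3.54 CPM. The neuronal lists share several genes with the synaptic and channel lists below, so these are not separate counts.

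At the synapse, 30 of 33 genes of vesicles and the release machinery were lower and 2, Sv2a and Cadps2, higher, with a median of -1.36. Syt1, the calcium sensor of release, had 102 and 114 CPM and then 11.5 and 10.6 CPM. Snap25, part of the membrane fusion complex, had 101 and 119 CPM and then 31.3 and 22.9 CPM. Bsn, a scaffold of the release site, had 196 and 187 CPM and then 35 and 31.6 CPM. Each of the 3 genes was several-fold lower in both older libraries. Of 33 transmitter receptor genes 27 were lower and 2, Gria4 and Grm7, higher, with a median of -1.38. Grin1, the obligatory NMDA receptor subunit, had 100 and 108 CPM and then 4.51 and 5.7 CPM, a 19.9-fold drop. Grin2b, a regulatory NMDA subunit, fell 8.18-fold, and Grin2c, the NMDA subunit that astrocytes express, fell 4.17-fold from 874 and 917 CPM. Gria1, an AMPA receptor subunit, had 105 and 98.4 CPM and then 17.2 and 16.8 CPM.

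Of 34 voltage-gated channel genes 29 were lower, 28 of them by at least 2-fold, and the median was -2.01. The T-type calcium channel Cacna1i had 60.6 and 54.4 CPM and then 3.26 and 2.39 CPM. Cacna1g, of the same family, had 90.5 and 85.9 CPM and then 8.53 and 7.54 CPM. Cacna1c, the L-type channel, had 223 and 224 CPM and then 57.6 and 57.5 CPM. Replicates were close and ages far apart in all 3. Kcna1, Kcna6, Kcnq3 and Hcn2 were the members that rose. Among inward rectifier and leak potassium channels 13 of 17 were lower and 3 higher. Kcnj4, a rectifier of neurons, had 36.7 and 33 CPM and then 0.251 and 1.39 CPM. Kcnk1, a leak channel, had 150 and 163 CPM and then 43.4 and 44.2 CPM. Kcnk13, another leak channel, rose from 49.4 and 58.5 CPM to 133 and 141 CPM, and Kcnj2 and Kcnj10, the rectifier of glia, were also higher.

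The extracellular matrix genes fell. Of 26 genes of perineuronal nets, the proteoglycan coats of parvalbumin cells, and of neural matrix, 16 were lower and 2 higher, with a median of -0.91. Bcan, the proteoglycan brevican, had 2057 and 2135 CPM at 6 months and 508 and 573 CPM at 18 months. Ncan, neurocan, had 500 and 511 CPM and then 121 and 134 CPM. Both fell nearly 4-fold and both are made by glia as well. The members that rose were Hapln2, a link protein of the nodes of Ranvier, with 241 and 258 CPM and then 663 and 710 CPM, and Adamts4, a protease that cuts these proteoglycans, with 132 and 125 CPM and then 343 and 355 CPM. Hapln2 was also on the oligodendrocyte list. Of 29 genes of collagens and the basement membrane 26 were lower, and the median was -1.54. Col6a1, a chain of the microfibril collagen VI, had 50.7 and 50.7 CPM and then 1.5 and 1.15 CPM, a 38.9-fold drop (adjusted p = 2.57e-16). Col6a3, another chain of the same collagen, was the only member that rose, from 6.25 and 6.82 CPM to 24.8 and 24.8 CPM. Lamb2, a laminin chain of vessel walls, had 152 and 152 CPM and then 40.9 and 48 CPM.

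The cells of vessel walls and their coverings showed the same direction. Of 16 pericyte and smooth muscle markers all were lower, with a median of -1.10 and a summed level of 3095 and 3149 CPM and then 1372 and 1412 CPM. Acta2, smooth muscle actin, had 268 and 290 CPM and then 73.9 and 76 CPM. Pdgfrb, the receptor that marks pericytes, had 261 and 253 CPM and then 130 and 124 CPM. Of 11 tested fibroblast markers 10 were lower, with a median of -1.60, among them Col3a1 with 17.4 and 18.4 CPM and then 1.63 and 3.23 CPM. In none of these genes did the ages overlap. Of 20 endothelial markers 15 were lower, with a median of -0.71. Flt1, a receptor for the vessel growth factor VEGF, had 40.7 and 40.6 CPM and then 24.6 and 25.5 CPM, while Kdr, the other VEGF receptor, rose from 10 and 10.2 CPM to 25.1 and 26.7 CPM. Slco1c1, a thyroid hormone transporter that endothelium and astrocytes share, fell 3.96-fold, from 446 and 463 CPM to 112 and 117 CPM. Cldn5, Pecam1 and Cdh5, which define endothelium, were called lower, and all 3 calls were lost without replicate 2 of 6 months. For Cldn5 the log2 fold change was then -0.45 in place of -0.87. The calls of Pecam1 and Cdh5 were also lost without replicate 2 of 18 months, and that of Cdh5 without replicate 1 of that age.

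Microglial genes were scarce. Of 19 tested markers 5 were higher, none was lower and 14 did not pass the test, with a median of 0.27. The summed level of all 20 members was 158 and 170.4 CPM at 6 months and 219.4 and 229.8 CPM at 18 months. P2ry12, a purine receptor of resting microglia, had 8.56 and 7.96 CPM and then 17.2 and 15.9 CPM. Ctss, a protease of microglial lysosomes, had 7.9 and 13.3 CPM and then 19.7 and 21.8 CPM. For these genes the older libraries were above the younger ones. Cx3cr1, the chemokine receptor of microglia, had 18.9 and 19 CPM and then 22.1 and 23.5 CPM, which did not pass the test (adjusted p = 0.0898). Blood-derived signal was also low. The 20 genes for macrophages and leukocytes, 8 of them tested, together summed to between 6.774 and 7.649 CPM in all 4 libraries. Cd3e, a T cell gene, had at most 2 reads in any of these libraries. Of 8 tested red cell genes 6 were higher, and the haemoglobin gene Hbb-bs had 12.5 and 12.8 CPM and then 29.6 and 21.2 CPM. The haemoglobin genes share reads with their copies, and the rise of red cell genes was not tested for its part in the other results.

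Major histocompatibility genes of class II, which present antigen on immune cells, fell within the interferon list, where 15 of 34 were lower and 6 higher (median -0.55). Cd74, the chain that escorts class II proteins, had 8.72 and 8.77 CPM and then 1.5 and 1.31 CPM, and H2-Aa, H2-Ab1 and H2-Eb1 fell with it. In contrast Xaf1, an interferon-induced promoter of cell death, had 19.3 and 14.1 CPM and then 61.2 and 60.3 CPM, and Ifit2, an inhibitor of translation, rose 2.27-fold. The list thus held genes in both directions. Of 29 p53 targets, cell cycle inhibitors and senescence genes, 9 were higher and 11 lower (median -0.27), and Cdkn2a, which encodes the p16 inhibitor, was too low to test. The shares over all tested genes were 28.2% higher and 30.8% lower, not far from those counts. Phlda3, a p53 target, had 44.1 and 51.2 CPM and then 75.6 and 86 CPM, while Igfbp5, a binding protein for growth factors, fell from 57.9 and 53.8 CPM to 23.1 and 18.9 CPM. Of 29 cell division genes 13 were lower and 6 higher, with a median of -0.93 that turned to 0.24 when genes had to reach 5 CPM in 2 libraries. Mki67, a marker of cycling cells, had 13.8 and 13.5 CPM and then 2.01 and 2.77 CPM, and Top2a, which untangles DNA for mitosis, fell 9.82-fold. Pcna, the sliding clamp of replication and repair, rose from 20.7 and 13.2 CPM to 34.5 and 32.5 CPM.

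Among genes for protein folding, degradation and the lysosome more were higher than lower. Of 56 chaperones 27 were higher, 9 lower and 20 not called, with a median of 0.26. Hsp90ab1, a general cytosolic chaperone, had 573 and 534 CPM and then 1011 and 1002 CPM. Cryab, the small heat shock protein of oligodendrocytes, had 329 and 310 CPM and then 745 and 716 CPM. Hspb8, another small heat shock protein, fell from 17 and 17.2 CPM to 3.64 and 4.77 CPM. These were clear of overlap. Among proteasome subunits 23 of 38 were higher and 1, the interferon-induced activator Psme1, lower, with a median of 0.32. None reached 2-fold. Psmc2, an ATPase of the proteasome cap, came closest, with 42.5 and 43.2 CPM and then 81.5 and 85.8 CPM. Of 42 autophagy genes 23 were higher and 4 lower, with a median of 0.39, and Bnip3l, a receptor for the removal of mitochondria, had 42.1 and 50 CPM and then 127 and 117 CPM. Among lysosomal genes 30 of 53 were higher and 9 lower, with a median of 0.29. Lamp1, a main protein of the lysosomal membrane, had 422 and 427 CPM and then 844 and 874 CPM. Gaa, the lysosomal enzyme that breaks down glycogen, fell from 200 and 194 CPM to 117 and 121 CPM.

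Genes of lipid handling moved in both directions. Of 39 members 23 were higher and 13 lower, with a median of 0.44, and 15 of the rises were at least 2-fold. The higher members included Fa2h, Ugt8a, Gal3st1 and Cers2, enzymes of myelin sphingolipids, of which Ugt8a is also on the oligodendrocyte list. Abca8a, a lipid transporter, had 99.1 and 104 CPM and then 385 and 399 CPM. Fads2, a desaturase of long fatty acids, fell from 282 and 264 CPM to 75 and 76.3 CPM. Acsl6, which activates fatty acids, fell from 522 and 523 CPM to 167 and 166 CPM, and Lrp1, a receptor for lipoproteins, from 2220 and 2228 CPM to 854 and 860 CPM. In the list for cholesterol synthesis 10 of 25 members were lower and 4 higher, with a median of -0.11. Hmgcs1, an early enzyme of the pathway and 1 of the 4 that rose, had 114 and 113 CPM and then 205 and 176 CPM. Its older libraries were above its younger ones.

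Of 27 genes of glycolysis and lactate transport 18 were lower and 4 higher (median -0.38). The muscle form of phosphofructokinase, Pfkm, fell from 252 and 252 CPM to 76.1 and 83.2 CPM, and the platelet form Pfkp from 460 and 448 CPM to 139 and 144 CPM. Slc16a1, the lactate transporter MCT1 of oligodendrocytes and vessels, rose from 83.5 and 85.1 CPM to 218 and 216 CPM. Most nuclear genes of oxidative phosphorylation did not pass the test: 53 of 75 were not called, 15 were higher and 7 lower, and the median was 0.08 (-0.02 with total-count scaling). All 7 mitochondrially encoded protein genes that could be tested were higher, with a median of 1.11. Of these mt-Co1, a subunit of cytochrome oxidase, had 3574 and 3246 CPM and then 5983 and 5277 CPM. The same libraries had the higher shares of mitochondrial ribosomal RNA given above, and the part of that share in this rise was not tested. Of 70 tested ribosomal protein genes 21 were higher and 6 lower, with a median of 0.18, and many have processed copies.

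**Figure D4:**
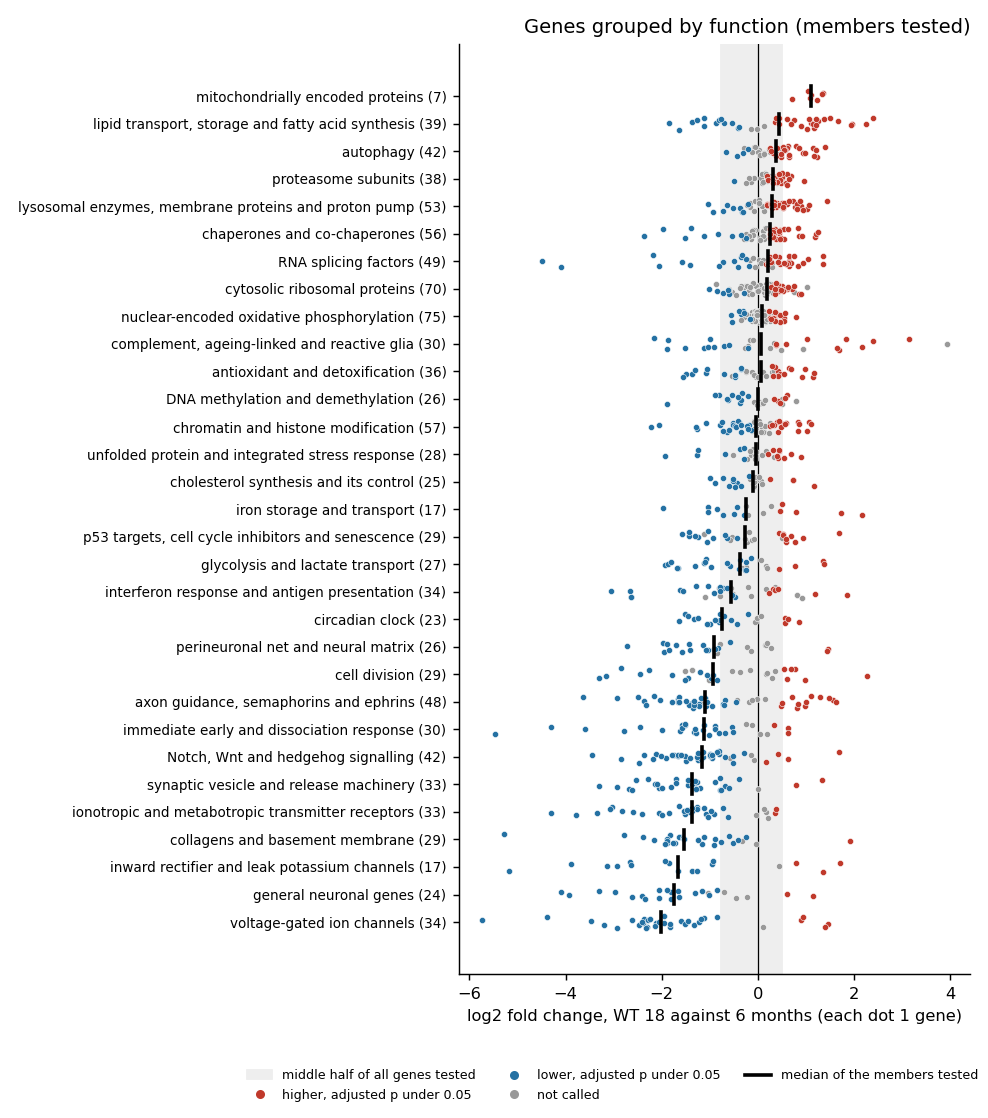
Log2 fold change at 18 against 6 months in WT (x axis) of each tested member of the 31 lists of pathways and functions (rows). Dots are genes (red called higher, blue called lower, grey not called), the black bar is the list's median and the grey band spans the quartiles of all tested genes, -0.76 to 0.50. Channel, receptor, matrix and signalling lists lie to the left, while the medians of the proteasome (0.32), autophagy (0.39) and lysosome (0.29) lie inside the band on its right side.

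Immediate early genes, which respond within minutes to activity and also to tissue dissociation, were mostly lower at 18 months. Of 30 members 23 were lower and 3, Jund, Arc and Klf6, higher, with a median of -1.13. Fos, the best known of them, had 69.1 and 52.3 CPM at 6 months and 20.3 and 20.2 CPM at 18 months. Npas4, which is induced by activity in neurons, had 10.4 and 11.9 CPM and then 0 and 0.385 CPM. Fosb had 16.1 and 15.4 CPM and then 2.26 and 2.31 CPM. All of these were lower in both older libraries than in either younger one. The part of sorting time or handling was not tested.

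Clock genes, the feedback loop that sets daily rhythm, also shifted: 16 of 23 were lower and 4 higher, with a median of -0.74. Per2, a repressor of the loop, had 129 and 115 CPM and then 44.3 and 41 CPM (log2 fold change -1.52, SE 0.0888, adjusted p = 3.14e-13). Per1 had 207 and 196 CPM and then 119 and 122 CPM, and Per3 had 213 and 218 CPM and then 107 and 110 CPM. All 3 period genes were lower at 18 months without overlap. Nr1d1, a nuclear receptor that represses the activator Arntl, had 97 and 83.3 CPM and then 37.4 and 35.2 CPM. Npas2, an activator, fell 3.12-fold, while Clock, its relative, rose from 95.8 and 101 CPM to 182 and 174 CPM. The sources used here do not give the hour at which tissue was taken, and its part in these differences was not tested.

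Promoters of these 2 lists, whose members moved together, were searched for the letters of motifs that bind their known regulators, on both strands, from 250 bases before to 50 bases after each start in RefSeq's GRCm38.p6 table. Promoters were found for 18 of 23 clock genes and 26 of 30 immediate early genes. The E-box CACGTG, bound by CLOCK and ARNTL, was in 5 of the 18 clock promoters (27.8%), in 4 of the 26 immediate early promoters (15.4%) and in 7.24% of all 27025 promoters. The cAMP response element TGACGTCA was in 1 clock promoter (5.56%), in 2 immediate early promoters (7.69%) and in 1.88% of all. The D-box TTATGTAA was in 1 clock promoter, Per3, in no immediate early promoter and in 0.955% of all. A match is a description of the letters and not evidence of binding, and Klf6 and Bhlhe41, which rose, hold the E-box too. The promoters below show where the capitals, the matched motif, stand in genes of both lists that were lower at 18 months. Those of Per1 (chr11:69098699-69098998, plus strand), Ciart (chr3:95882179-95882478, minus strand) and Cry1 (chr10:85185005-85185304, minus strand) hold the E-box, 3 times in Ciart. Per3 (chr4:151044616-151044915, minus strand) holds the D-box 2 times. Dusp1 (chr17:26508423-26508722, minus strand) and Btg2 (chr1:134079106-134079405, minus strand) hold the cAMP response element. Dusp1 also holds an E-box, which is left in lower case so that its capitals mark the cAMP response element alone.
Per1: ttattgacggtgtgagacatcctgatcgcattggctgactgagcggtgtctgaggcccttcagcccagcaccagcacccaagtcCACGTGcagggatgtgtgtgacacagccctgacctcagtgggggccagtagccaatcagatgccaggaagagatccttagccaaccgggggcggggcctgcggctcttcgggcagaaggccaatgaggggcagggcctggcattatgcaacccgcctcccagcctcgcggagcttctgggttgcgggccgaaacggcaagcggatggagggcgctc
Ciart: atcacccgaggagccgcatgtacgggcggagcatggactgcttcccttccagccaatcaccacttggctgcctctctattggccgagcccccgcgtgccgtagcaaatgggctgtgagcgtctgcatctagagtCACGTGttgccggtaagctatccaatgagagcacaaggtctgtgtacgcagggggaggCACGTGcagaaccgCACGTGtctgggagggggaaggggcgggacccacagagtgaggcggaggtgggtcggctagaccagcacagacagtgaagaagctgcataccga
Cry1: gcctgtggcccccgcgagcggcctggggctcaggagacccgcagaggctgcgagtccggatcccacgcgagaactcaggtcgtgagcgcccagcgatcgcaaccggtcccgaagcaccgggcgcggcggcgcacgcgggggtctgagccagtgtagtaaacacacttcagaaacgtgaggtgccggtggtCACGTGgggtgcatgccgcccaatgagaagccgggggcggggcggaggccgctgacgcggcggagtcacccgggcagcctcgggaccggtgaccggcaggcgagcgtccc
Per3: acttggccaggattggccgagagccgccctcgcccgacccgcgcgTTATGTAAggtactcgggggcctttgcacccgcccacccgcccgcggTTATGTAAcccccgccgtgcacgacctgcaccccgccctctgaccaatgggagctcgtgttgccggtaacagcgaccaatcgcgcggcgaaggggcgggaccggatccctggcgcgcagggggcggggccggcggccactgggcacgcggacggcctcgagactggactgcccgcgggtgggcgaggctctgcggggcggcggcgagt
Dusp1: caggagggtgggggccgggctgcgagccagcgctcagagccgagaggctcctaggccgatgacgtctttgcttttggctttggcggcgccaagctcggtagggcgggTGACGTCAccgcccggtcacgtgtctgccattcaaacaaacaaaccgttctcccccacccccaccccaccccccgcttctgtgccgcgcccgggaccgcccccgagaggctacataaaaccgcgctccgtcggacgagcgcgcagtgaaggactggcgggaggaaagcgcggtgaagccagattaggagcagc
Btg2: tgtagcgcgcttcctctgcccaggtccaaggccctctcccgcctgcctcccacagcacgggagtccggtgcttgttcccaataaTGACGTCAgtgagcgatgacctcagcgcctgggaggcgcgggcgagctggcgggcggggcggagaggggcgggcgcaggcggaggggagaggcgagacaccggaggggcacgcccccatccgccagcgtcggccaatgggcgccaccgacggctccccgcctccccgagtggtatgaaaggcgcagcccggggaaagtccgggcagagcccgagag

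The genes behind these promoters changed by modest factors. Ciart, a repressor in the loop, had 8.89 and 9.1 CPM and then 7.4 and 5.16 CPM (log2 fold change -0.56, SE 0.225, adjusted p = 0.0359). Cry1, the partner of the period proteins, had 30.9 and 26.5 CPM and then 20.7 and 21.7 CPM. Dusp1, a phosphatase that ends kinase signals, had 39 and 31 CPM and then 24.3 and 24.5 CPM. Btg2, a brake on cell division, had 34.9 and 39.3 CPM and then 25.1 and 21.3 CPM. The ages did not overlap in any of the 4, and the differences were smaller than that of Per2.

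Signalling genes of development fell broadly. Of 42 members of the Notch, Wnt and hedgehog pathways 35 were lower and 4 higher, with a median of -1.16. Lfng, an enzyme that modifies Notch receptors, had 295 and 294 CPM and then 52.5 and 53 CPM, a 5.58-fold drop (adjusted p = 1.25e-18). Notch1, a receptor, had 432 and 441 CPM and then 184 and 186 CPM. Fzd2, a Wnt receptor, had 112 and 108 CPM and then 20.4 and 21.9 CPM. Gli3, the transcription factor of hedgehog signalling, had 148 and 144 CPM and then 51.3 and 45.5 CPM. In these genes from 3 pathways the older libraries were all below the younger ones. The members that rose were Rbpj, Lrp6, Ctnnb1 and Hhip, the last an inhibitor that binds hedgehog ligands. Axon guidance genes split: 30 of 48 were lower and 12 higher, with a median of -1.09. Their summed level went the other way, from 4101 and 4091 CPM to 5260 and 5325 CPM. Efnb3, an ephrin that repels axons, had 264 and 267 CPM and then 792 and 835 CPM, and Sema6a, a membrane semaphorin, had 130 and 116 CPM and then 369 and 359 CPM. Sema4b, another semaphorin, fell from 162 and 144 CPM to 46.3 and 42.7 CPM.

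Splicing factors moved in both directions: 25 of 49 were higher and 14 lower, with a median of 0.22. Qk, the RNA-binding protein that controls splicing in oligodendrocytes, had 1096 and 1044 CPM and then 3017 and 2477 CPM. Mbnl2 had 328 and 298 CPM and then 829 and 766 CPM. Srrm4, which drives the use of neuronal microexons, had 18.9 and 20.3 CPM and then 1.13 and 0.693 CPM. Qk and Mbnl2 were thus higher and Srrm4 lower in each older library. Of 26 genes of DNA methylation 5 were higher and 11 lower, with a median of 0.01, which was -0.09 with total-count scaling. Dnmt1, intact in these mice, had 97.9 and 104 CPM and then 80.8 and 81.1 CPM (log2 fold change -0.32, SE 0.0721, adjusted p = 0.000586). Tet1, which oxidises methylated cytosine, had 69 and 58.8 CPM and then 104 and 92.1 CPM. Of 57 chromatin genes 16 were higher and 23 lower, with a median of -0.04, beside 28.2% higher and 30.8% lower of all tested genes. The remodeller Chd3 fell from 172 and 168 CPM to 40.4 and 41.1 CPM.

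Several of the largest folds lay outside the lists. Among genes of 10 CPM or more in their higher group, and leaving aside predicted genes and clones, the Y RNA gene Rny1, whose short RNA is bound by the Ro protein, had the largest rise. Rny1 (chromosome 6, 47788069 to 47788180) had 12.3 and 17.7 CPM and then 286 and 331 CPM, 20.5-fold higher, and Rny3, another Y RNA gene, had 18.1 and 27 CPM and then 209 and 228 CPM. Reads of Y RNA genes can be shared with their many copies. Trim59, a ubiquitin ligase, had 27.7 and 20.8 CPM and then 207 and 181 CPM. Slc13a1, a sulfate transporter, had 3.29 and 3.09 CPM and then 31.5 and 27.3 CPM, 9.12-fold higher. That both older libraries lay above both younger ones in these 4 genes was a condition of their choice and is no further support. In the other direction Cytl1, a secreted cytokine-like protein, had 84 and 93 reads at 6 months and 1 and 1 reads at 18 months, a ratio per depth of 152 (95% binomial interval 41.4 to 1262, which covers counting error only). Dnah11, a motor protein of cilia, had 38.8 and 39 CPM and then 0.627 and 0.693 CPM. Crhr1, the receptor for corticotropin-releasing hormone, had 16 and 12.7 CPM and then 0.125 and 0.308 CPM. Cntnap4, a synaptic protein of interneurons, had 13.3 and 16.1 CPM and then 0.251 and 0.231 CPM. In KO at 6 months Cytl1, Dnah11, Crhr1 and Cntnap4 had means of 0.0597, 1.29, 2.46 and 1.12 CPM, far below WT of that age.

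Some genes had at most 3 reads over the 2 libraries of an age and at least 50 over those of the other: 16 were near 0 at 6 months and 11 near 0 at 18 months. Prlr, the prolactin receptor, had 1 and 2 reads at 6 months and 52 and 73 at 18 months, a ratio of 24.3 (interval 8.13 to 119). Map3k21, a kinase, had 2 and 1 reads and then 36 and 83 reads. Sp9, a factor of the interneuron lineage, had 47 and 55 reads and then 3 and 0 reads, a ratio of 58.3 (interval 19.4 to 287). Tuba8, a tubulin, had 31 and 22 reads and then none, so it was at least 30.3-fold lower when 0 is read as 3 reads over the group. These values rest on few reads. The genes were chosen by those same reads, so it is no further support that both libraries of an age lay on the same side. The ratios and intervals do not allow for that choice.

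The age difference in WT was tested against that in KO, the groups of which share no library with it. Dnmt1, the targeted gene, had 77.2 and 75.2 CPM in KO at 6 months and 74.3 and 76.6 CPM in KO at 18 months, beside 97.9 and 104 CPM and 80.8 and 81.1 CPM in WT. These are counts over the whole gene, with exons outside the deleted part, so they are no check of the deletion. In KO 2512 genes (13.8%) were higher and 3263 genes (17.9%) lower at 18 months. Of the WT rises 27.9% (1430 genes) were also rises in KO, which was 56.9% of the KO rises, and of the WT falls 35.6% (2000 genes) were also falls in KO, 61.3% of the KO falls. A further 576 genes rose in WT and fell in KO, and 437 did the reverse. The test of the difference between the age differences called 3768 genes (20.7%) with a higher log2 fold change in WT and 3358 genes (18.4%) with a lower one. Of the 5099 genes called with at least 2-fold in WT, 3288 passed that test, beside the 20.7% and 18.4% of all tested genes. Both tests hold the same WT age difference. Genes chosen for a large one thus pass more often by construction, and the count is no separate evidence.

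All 24 myelin genes had a higher age difference in WT, and in KO their median was -0.07, with 6 called higher and 9 lower. Their summed level was 17070 ± 15.8 CPM in WT at 6 months, 51156 ± 149 CPM in WT at 18 months, 37455 ± 738 CPM in KO at 6 months and 34577 ± 285 CPM in the older KO group (mean ± SD, n = 2 each). WT at 6 months was thus the lowest of the 4 groups and WT at 18 months the highest. Apod had a log2 fold change of -0.15 in KO and a difference between genotypes of 2.54 (adjusted p = 1.04e-16). Mbp had means of 4064 and 3966 CPM in KO at 6 and 18 months. For astrocytes, 21 of 22 markers had a lower age difference in WT, and 12 of the 22 were called higher with age in KO. Slc1a3 had means of 1017 and 1237 CPM in KO, between those of the WT ages. Among microglial genes 16 of 19 had a higher age difference in WT, and in KO 15 of them fell and the list summed to 213.4 CPM at 6 months and 95.86 CPM at 18 months.

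Neuronal and vascular genes were mixed in this respect. Of the 14 GABA neuron genes 8 fell in KO, and the difference was called for 7 of the 14, 6 lower and 1 higher in WT. The age difference was called lower in WT for 19 of 34 voltage-gated channels, 18 of 33 receptors, 9 of 16 pericyte and smooth muscle markers and 7 of 11 fibroblast markers. Gria1 fell in both genotypes, with log2 fold changes of -2.59 in WT and -0.43 in KO (difference -2.15, adjusted p = 4.91e-12). Rgs5, a pericyte gene, had log2 fold changes of -0.98 in WT and -0.10 in KO (difference -0.88, adjusted p = 2.84e-08). Other genes had differences that did not pass the test. Acta2 had log2 fold changes of -1.90 in WT and -1.86 in KO, a difference of -0.04 (adjusted p = 0.777). For Syt1 these were -3.30 in WT and -2.89 in KO (difference -0.41, adjusted p = 0.0957), and for Fos -1.58 and -1.27 (difference -0.31, adjusted p = 0.154). A p above the threshold does not show that the genotypes were alike. Among clock genes 14 of 23 had a lower age difference in WT, and Per3 was lower with age in WT (-0.99) and higher in KO (0.44). Mitochondrially encoded genes rose in WT and fell in KO in all 7 tested members. The KO libraries also held Prl, the pituitary hormone prolactin, with 1910 and 1843 reads at 6 months and 699 and 680 at 18 months, while the WT libraries had none. S100a8, a neutrophil gene, had 115 and 110 reads in KO at 6 months against at most 14 in any WT library. The part of such RNA in the differences between genotypes was not tested.

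**Figure D5:**
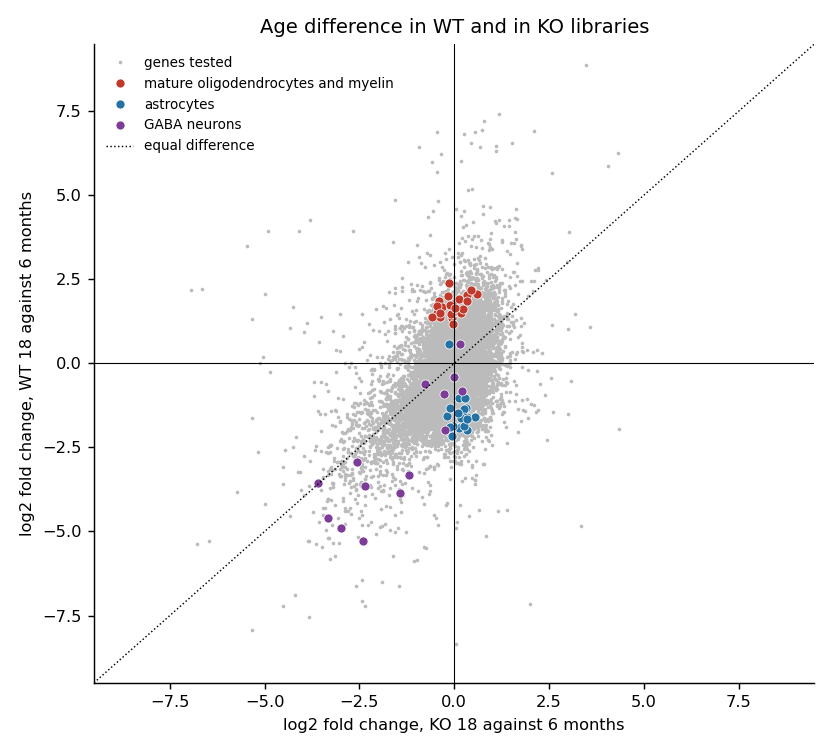
Log2 fold change at 18 against 6 months in KO (x axis) and in WT (y axis) for each tested gene, with the oligodendrocyte, astrocyte and GABA neuron lists coloured and lines at 0 and at equality. The oligodendrocyte genes sit between 1.18 and 2.39 in WT around a KO median of -0.07, the astrocyte genes around -1.61 in WT and 0.20 in KO, and most GABA neuron genes are below 0 in both.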

How the data were processed

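Total RNA of sorted cortex cells was sequenced in 8 libraries, 2 each for WT and KO at 6 and 18 months. Each deposited table holds raw read counts per gene, and its column of counts was used as deposited. Per the submitters' processing notes, featureCounts 1.5.0-p1, STAR 2.5.2a and CASAVA 1.8.2 were used, and the mouse genome build was mm10 (GRCm38). The sources used here do not give the annotation release, the strand setting or how reads that match several places were counted, so overlapping genes and close copies are uncertain. Symbols and positions came from a GENCODE table of GRCm38, which named 55480 of 55573 gene IDs (99.8%).

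Genes were kept by edgeR's filterByExpr with a minimum count of 10, which left 18205 genes with at least 99.7% of each library's counts. TMM factors ran from 0.941 to 1.05. All 8 libraries were fitted together with edgeR's quasi-likelihood test (edgeR 4.0.16, limma 3.58.1, R 4.3.3), with group as the only term, and p-values were adjusted by Benjamini-Hochberg over all tested genes at a threshold of 0.05. Contrasts were 18 minus 6 months in WT, the same in KO, and their difference. CPM are counts-per-million of TMM-adjusted library totals, and ± is the SD of 2 libraries. The SE of a log2 fold change was derived from the test statistic. On simulated counts for this comparison, 90% of 100 genes changed 2-fold and 67% of 100 changed 1.5-fold were recovered among 17582 genes. Alternatives were other scalings, filters and subsets of libraries, a replicate block and DESeq2 1.42.0.

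The comparison, the 45 gene lists (1312 different genes, 1254 tested) and the rule for named genes were chosen with earlier results of these data known. The rule took Pvalb, Gad1, Gad2 and Dnmt1, the 12 genes in each direction with the largest fold at 10 CPM or more in the higher group, the 8 with the largest change in CPM, the first 4 genes of each marker list and, from every list, up to 6 genes of smallest p, the 6 in each direction with the smallest p for the difference from KO, and the 5 in each direction with the most reads among genes near 0 at 1 age. Predicted genes, clones and pseudogenes were passed over. Genes taken for the largest fold also had to pass the threshold, with both libraries of 1 age above both of the other. Their lack of overlap was thus fixed in advance. Genes taken for the change in CPM had to pass the threshold too. For these, for genes of smallest p and for genes near 0 at 1 age, the choice made lack of overlap likely. Outside the rule, and chosen after their values were seen, are genes given as exceptions or extremes of a list or as counts of few members, the genes of the printed promoters, the lipid enzymes of myelin, Snap25, Tuba8, Prl and other defining markers at or near 0. Replicate numbers were taken from the labels. Deviations of same-numbered libraries from their group means correlated at 0.0758 or less, so the numbers were not taken to pair libraries. Some genes that the rule takes are not reported here.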

Additional observations from a re-analysis of the deposited data

Results flagged for a closer look

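The age difference was not the same in the 2 genotypes. By the test of the difference itself (quasi-likelihood test of edgeR, adjusted after Benjamini and Hochberg), the age log2 fold change was higher in WT than in KO for 3768 genes and lower for 3358 genes. Among the 6 named genes in each direction with the smallest adjusted p for this difference, Fth1 had a difference of 2.85, from 2.16 in WT and -0.69 in KO. The myelin genes among them were Apod with a difference of 2.54, Mobp with 2.26, Opalin with 2.17, Mal with 1.94 and Mbp with 1.81. All 5 rose in WT. In KO, Apod (-0.15, adjusted p = 0.0295), Mobp, Opalin and Mal fell, while Mbp (-0.04, adjusted p = 0.621) did not pass the test.

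In the other direction, Lfng had a difference of -2.76, Fgfr3 of -2.32, Slco1c1 and the ubiquitin ligase gene Trim9 of -2.27 each, S1pr1, a receptor for the lipid sphingosine 1-phosphate, of -2.06, and Slc1a3 of -1.97. Each of these 6 genes fell in WT and rose in KO. Trim9 had 605 and 590 CPM in WT at 6 months and 160 and 161 CPM at 18 months, and means of 321 and 416 CPM in KO. S1pr1 had 872 and 861 CPM and then 262 and 246 CPM in WT, and means of 437 and 535 CPM in KO. For both genes WT at 6 months was the highest of the 4 groups and WT at 18 months the lowest.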

How the results depend on the processing

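Every count of genes called kept within 1.5 times its value under each alternative that was run. Genes higher at 18 months numbered from 4367 with total-count scaling to 5500 with no filter, and genes lower from 4486 with DESeq2 to 6305 with total-count scaling. Genes changed by at least 2-fold numbered 1204 to 2061 higher and 2336 to 3711 lower. With each library left out in turn, 4544 to 5169 genes were higher and 4794 to 5566 lower. For the difference from KO, 2651 to 3970 genes were higher and 2357 to 4769 lower, the last with total-count scaling. With the replicate block, 5278 genes were higher and 5727 lower, and the difference from KO was called higher for 3970 and lower for 3524.

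Of 301 named genes called, 292 stayed past the threshold in every alternative that tested them, and none changed sign. The 9 others (Siglech, F13a1, S100a9, Cldn5, Pecam1, Cdh5, Aqp1, Hbb-bt and Hba-a1) lost the call in at least 1. Among named genes not called, C1qc gained a call in 7 alternatives, Csf1r with upper-quartile scaling (0.31) and without replicate 1 of WT at 6 months (0.46), and Slc17a6 without replicate 2 of that group (-1.88). List medians near 0 changed sign: the antioxidant list went from 0.06 to -0.04 with total-count scaling, the unfolded protein list from -0.04 to 0.02 without replicate 2 of WT at 6 months, and the macrophage and leukocyte list from 0.39 to -0.60 with only the 4 WT libraries. The cause was not tested. Depth limits the low genes, and 2 libraries of a pool do not show how mice vary.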

Other observations

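Antioxidant genes moved both ways. Of 36 tested members 14 were higher and 11 lower, with a median log2 fold change of 0.06. Over all tested genes 28.2% were higher and 30.8% lower, so these counts were not far from the background. Prdx6, a peroxidase of astrocytes, fell from 419 and 391 CPM to 150 and 163 CPM. Mt3, the metallothionein of brain, fell from 74.9 and 77.5 CPM to 33.4 and 28.6 CPM. Prdx1, a related peroxidase, rose from 71.6 and 73.9 CPM to 132 and 142 CPM. Libraries of the 2 ages did not overlap in these genes. In the unfolded protein list 10 of 28 were higher and 7 lower, with a median of -0.04, also not far from that background. Canx, a chaperone of the endoplasmic reticulum, rose from 286 and 281 CPM to 541 and 517 CPM. Sdc4, a surface proteoglycan, fell 3.8-fold and was among the list's 7 lower members.

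Some genes outside the lists rose in both genotypes. Clic5, a chloride channel-like protein, had 4.28 and 6.17 CPM in WT at 6 months and 39.1 and 36.5 CPM at 18 months, with log2 fold changes of 2.85 in WT and 2.20 in KO (adjusted p of the difference 0.0478). Cdh8, an adhesion protein, had 2.3 and 2.76 CPM and then 18.8 and 16.8 CPM, with 2.79 in WT and 2.20 in KO (adjusted p of the difference 0.153). The older libraries of both genotypes were above the younger ones on average. Chd5, a chromatin remodeller of neurons, fell from 89.5 and 81.1 CPM to 18.9 and 17.9 CPM, with -2.22 in WT and -2.18 in KO. Of 5 tested ependymal and choroid plexus markers 1 was higher and 2 lower.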
